A study of Mus musculus with 18 samples.

Results

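The genes of oxidative phosphorylation were followed in RNA-seq of the mouse retinal pigment epithelium (RPE), the pigmented monolayer behind the photoreceptors. Members were taken from the count table by symbol, as the subunits of complexes I to V, *Cyc1*, and the protein-coding genes of mitochondrial DNA. The prefixes took 114 rows, of which 7 pseudogenes marked -ps were dropped, leaving 107 of the 52636 genes in the table. Of these, 94 were nuclear and 13 mitochondrial. The nuclear members were 84 subunits and 10 other genes that share the prefixes, namely 8 Ndufaf genes, which help to assemble complex I, and *Atp5s* and *Atp5sl*. C57BL/6 mice were injected as newborns with AAV8 virus that used the *Best1* promoter for expression in the RPE, and tissue was taken at postnatal day 14. The 6 groups of 3 libraries were uninjected eyes, GFP, nSREBP2 (the nuclear, active form of the sterol regulator SREBP2, with GFP as its control), ctrl sh (a hairpin against LacZ by its label), and 2 hairpins against *Lrp2*, sh1 and sh2. *Lrp2* encodes megalin, an endocytic receptor. Both eyes of a mouse were pooled, and the libraries held 8921885 to 13696934 counts.

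Oxidative phosphorylation takes electrons from NADH at complex I and from succinate at complex II, passes them through complex III and cytochrome c to oxygen at complex IV, and uses the proton gradient to make ATP at complex V. Complexes I, III, IV and V are each built from subunits encoded by both genomes, whereas every subunit of complex II is nuclear. The mitochondrial messages are cut from long transcripts of both strands of a small circular genome and are translated inside the organelle. In the outer retina, the RPE is known for its reliance on mitochondrial respiration, which leaves glucose for the photoreceptors.

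Only 7 of the 13 mitochondrial messages had many counts. *mt-Co2*, *mt-Atp8*, *mt-Atp6*, *mt-Co3*, *mt-Nd3* and *mt-Nd4l*, which are neighbours on the map, had 1065, 7, 932, 1425, 105 and 97 counts over all 18 libraries. Together they held 3631 counts, or 0.183% of the counts of the 13 genes, against 1977578 for the other 7. The gap lies within complex IV: *mt-Co1*, the catalytic subunit, had 391 times the count per kb of *mt-Co2*, which carries the copper site that accepts electrons from cytochrome c. The 6 genes coincide with a stretch of chromosome 1 (24611535 to 24616197 in GRCm38, minus strand) where the GENCODE M21 annotation lists unprocessed pseudogenes, copies of mitochondrial DNA in the nuclear genome. Between 99.0% and 99.9% of the transcripts of *mt-Co2*, *mt-Atp6*, *mt-Co3*, *mt-Nd3* and *mt-Nd4l* aligned to a copy there with at most 1 mismatch, and *mt-Atp8* lies between 2 of them without an annotated copy. A part of *mt-Nd4* (63.6% of its transcript) and of *mt-Co1* (31.3%) also had a copy. The copies themselves had from 142 counts (*Gm28438*) to 2311 counts (*Gm28437*). Genes were counted with STAR at its default settings, and STAR's own gene counting leaves out reads that align to more than one place. The part of this in the low counts was not tested, and levels of these 6 genes are uncertain. The levels of *mt-Nd4* and *mt-Co1* carry the same limit for the part that has a copy.

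The sequences below show how alike gene and copy are. Each is a window of 51 bases read from the GENCODE M21 transcripts, 5′ to 3′, with a base that differs between gene and copy in capitals. The *mt-Co1* window (chrM:6390-6440, plus strand) and its copy in *Gm29216* (chr1:24616138-24616188, minus strand) differ by A1066T, counted from the first base of the gene.
mt-Co1: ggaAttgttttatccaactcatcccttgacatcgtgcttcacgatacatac
Gm29216: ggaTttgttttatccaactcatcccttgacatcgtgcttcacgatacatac
The *mt-Nd3* window (chrM:9459-9509, plus strand) and *Gm28438* (chr1:24613069-24613119, minus strand) differ by T3C.
mt-Nd3: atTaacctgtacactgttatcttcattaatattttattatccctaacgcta
Gm28438: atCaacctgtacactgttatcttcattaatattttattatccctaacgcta
The *mt-Co2* window (chrM:7018-7068, plus strand) and *Gm28661* (chr1:24615510-24615560, minus strand) are the same in every base, as is the whole alignment of 681 bases.
mt-Co2: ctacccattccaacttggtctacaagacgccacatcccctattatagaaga
Gm28661: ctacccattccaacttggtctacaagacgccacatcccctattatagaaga

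**Figure D1:**
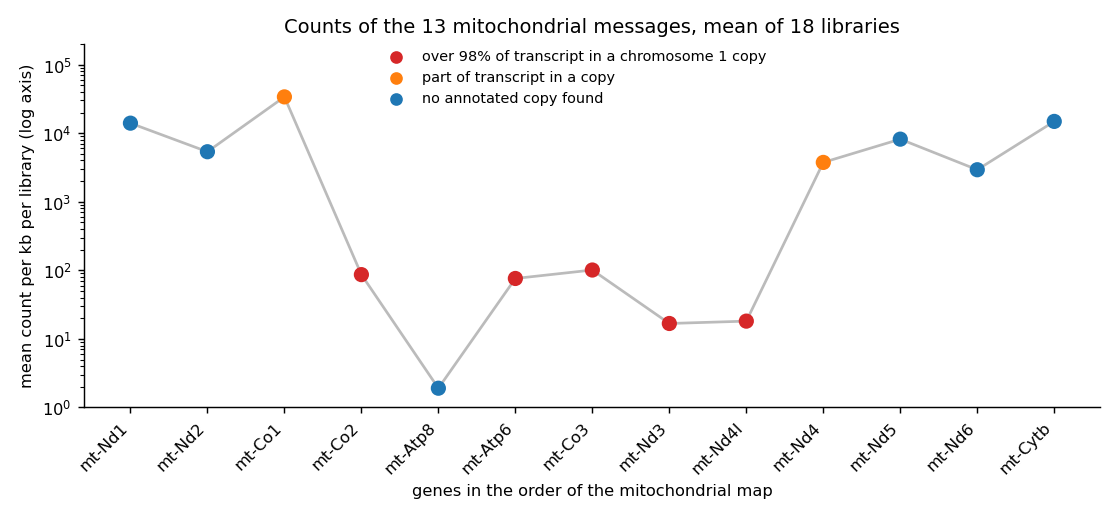
Mean count per kb per library on a log axis for the 13 mitochondrial genes in map order, with colours for the extent of a chromosome 1 copy. The 6 neighbours from *mt-Co2* to *mt-Nd4l* lie at 1.91 to 101 counts per kb, and the other 7 genes at 2930 to 33852.

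Before the comparisons, several libraries stood apart. *Rpe65*, the retinoid isomerase that defines mature RPE, averaged 813.5 ± 392 CPM (counts scaled to library size with edgeR's TMM factors, SD, n = 3) in uninjected eyes, 34.0 ± 55.2 with ctrl sh, 17.6 ± 22.9 with *Lrp2* sh1, 8.21 ± 6.52 with *Lrp2* sh2, 3.13 ± 0.663 with nSREBP2 and 1.64 ± 0.616 with GFP. Its mean was lower in every injected group, with a wide spread in ctrl sh and sh1. Of 18 RPE markers, 8 fell with GFP and none was called with ctrl sh (6 at an unadjusted *P* under 0.05), each against uninjected eyes in edgeR. The pigment cell genes *Dct*, *Pmel* and *Tyrp1* stayed among the abundant messages, at 2742, 2689 and 2375 CPM with GFP. Uninjected library 1 had the lowest nuclear oxidative phosphorylation sum of all 18 libraries. Summed Y-linked CPM were 260.5, 244 and 265 in the 3 nSREBP2 libraries, 319 in uninjected library 3, 304 and 303 in *Lrp2* sh2 libraries 2 and 3, and 0.83 or less elsewhere. Sex and group therefore cannot be told apart between nSREBP2 and GFP. The 16 rod photoreceptor markers summed to 497, 417 and 346 CPM with nSREBP2, 383 in GFP library 3 and 544 in *Lrp2* sh2 library 1, and to at most 155 in the other libraries. In bulk tissue, fewer cells of a type and less RNA per cell cannot be told apart.

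Per kb of exon, the 7 mitochondrial messages with many counts, at 248 to 2887 CPM per kb, were above every nuclear one, while the 6 with few counts, whose levels are uncertain, were at 0.15 to 8.64. The length used is the union of all annotated exons of a gene, so that levels per kb depend on how many transcripts are annotated. Over the 18 libraries *mt-Co1* averaged 4461 ± 651 CPM (SD, n = 18) or 2887 CPM per kb, followed by *mt-Cytb*, the only mitochondrial subunit of complex III, at 1269 CPM per kb. The nuclear members with the highest CPM per kb on this length were *Cox8a*, the isoform of subunit 8 of complex IV found in most tissues, at 122 CPM per kb, and the F1 subunits *Atp5a1* and *Atp5b*, which form the catalytic head of complex V, at 119 and 107. Before division by length, *Atp5b* was at 452 CPM and *Cox8a* at 75.4. The 10 assembly and other genes were low, at 1.04 (*Ndufaf2*) to 5.59 (*Ndufaf8*) CPM per kb.

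In most isoform pairs of complex IV, the ubiquitous isoform had the higher level. *Cox4i1* was at 57.1 CPM per kb and the lung and hypoxia isoform *Cox4i2* at 8.64. *Cox6a1* was at 66.4 CPM per kb, and the muscle isoform *Cox6a2* at 0.243, too low to test. *Cox6b1* was at 68.6 CPM per kb, and *Cox6b2*, known from testis, at 13.3. *Cox7a2* was at 30.7 CPM per kb, and the muscle isoform *Cox7a1* at 3.45. The gene *Cox7a2l*, not counted in this pair, was at 41.5 CPM per kb. *Cox8b*, of muscle and brown fat, was at 15.8 CPM per kb, and *Cox8c* had no count in any library. *Cox7b2* was also too low to test, at 0.00986 CPM. The 3 genes for the same rotor subunit c of complex V were at 35.1 (*Atp5g3*), 18 (*Atp5g2*) and 7.32 (*Atp5g1*) CPM per kb.

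The mitochondrial members took 0.622% to 1.24% of all counts in a library and the nuclear members 0.276% to 0.419%. With nSREBP2 the mitochondrial share was 0.654%, 0.622% and 0.778%, against 1.04%, 1.05% and 1.09% with GFP, and the nuclear share 0.313%, 0.301% and 0.322% against 0.398%, 0.413% and 0.357%. Every nSREBP2 library lay below every GFP library in both shares. The mean mitochondrial share was 0.684% ± 0.0823 with nSREBP2 and 1.06% ± 0.0283 with GFP (SD, n = 3). The uninjected libraries, at 0.693%, 0.911% and 1.24%, spanned nearly the whole range of the series, so the nSREBP2 and uninjected shares overlapped. With *Lrp2* sh2 the nuclear share was 0.342%, 0.311% and 0.373%, below each of the ctrl sh values of 0.386%, 0.385% and 0.393%. The mitochondrial share did not separate these groups (0.941%, 0.942% and 1.07% against 0.873%, 0.990% and 0.923%). The ratio of the mitochondrial to the nuclear sum of CPM was lowest with nSREBP2 (2.19 ± 0.195) and highest with *Lrp2* sh2 (2.88 ± 0.139, SD, n = 3).

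**Figure D2:**
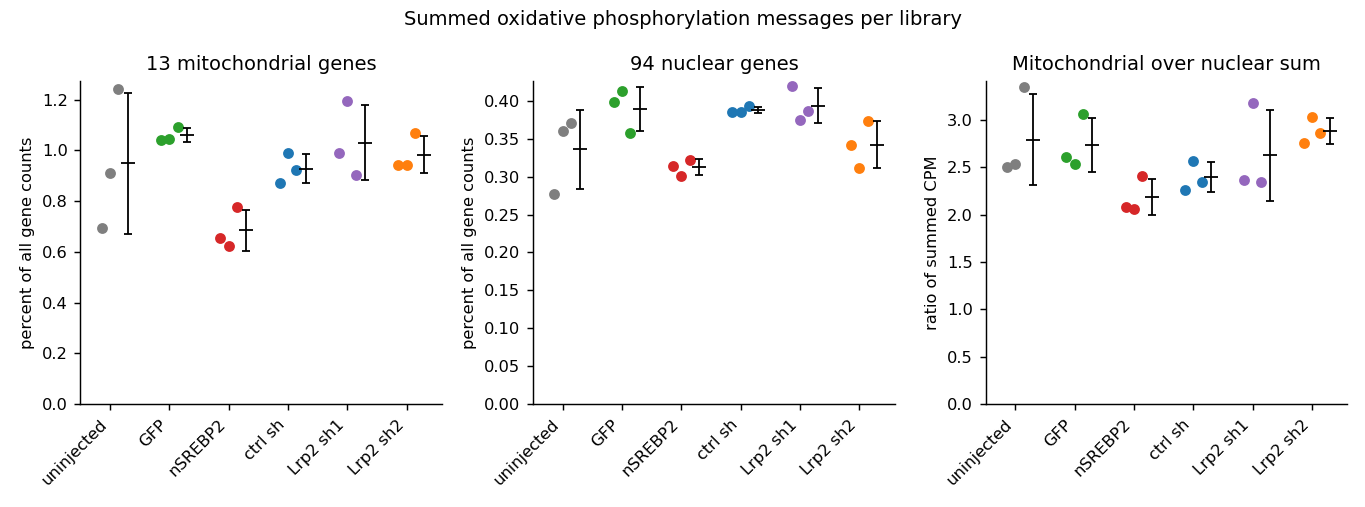
Points are libraries, with the group mean and SD to their right. The panels give the share of all gene counts held by the 13 mitochondrial and the 94 nuclear genes, and the ratio of their summed CPM. The nSREBP2 libraries hold 0.622% to 0.778% of counts in mitochondrial genes and the GFP libraries 1.04% to 1.09%.

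Of the 107 members, 101 passed the filter on low counts and were tested for each pair of groups. Of these, 81 were nuclear subunits, 10 assembly or other genes, and 10 mitochondrial. *Cox6a2*, *Cox7b2*, *Cox8c*, *mt-Atp8*, *mt-Nd3* and *mt-Nd4l* were not tested. A gene was called at an adjusted *P* under 0.05 in edgeR's quasi-likelihood test, with *P*-values adjusted over all genes tested and with no limit on the size of the change. Log2FC is the log2 fold change of the first group over the second, given with its SE. *Srebf2* was higher in nSREBP2 eyes (217 ± 15.9 against 101 ± 15.9 CPM), and *Lrp2* was lower with sh1 (36.9 ± 6.65 CPM) and sh2 (38.7 ± 4.73 CPM) than with ctrl sh (118 ± 42.8 CPM), as the labels say.

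Between nSREBP2 and GFP, mitochondrial messages and a minority of nuclear subunits fell. Of the 101 members tested, 25 fell and 1 rose, beside 21% of all genes called (12.6% higher and 8.47% lower). None passed with an absolute log2FC above 1, beside 6.67% of all genes. All 7 mitochondrial messages with many counts fell, by 0.44 (*mt-Co1*) to 0.89 (*mt-Nd6*) on the log2 scale. Their median log2FC was -0.69, which is a change of -38.0%, beside -0.02 for all genes tested. Of the 3 tested messages with few counts, none passed (*mt-Co2* -0.17 ± 0.20, *mt-Atp6* -0.42 ± 0.20, *mt-Co3* -0.39 ± 0.16).

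*mt-Nd5*, a proton-pumping core subunit of complex I, was at 747, 689.7 and 943 CPM with nSREBP2 and at 1379.8, 1370.4 and 1444 CPM with GFP. The groups did not overlap, and every GFP library was well above every nSREBP2 library. Its log2FC was -0.82 ± 0.11 (adjusted *P* = 0.000634). *mt-Nd6*, the only one of the 13 encoded on the opposite strand, was at 79.3, 80.8 and 109.8 CPM against 159, 162 and 178 CPM. The highest nSREBP2 library was thus still below the lowest GFP library (log2FC -0.89 ± 0.12, adjusted *P* = 0.000728). *mt-Co1* had the smallest fall of the 7, from 4836, 4984 and 5279 CPM with GFP to 3808, 3237 and 4155 CPM (log2FC -0.44 ± 0.10, adjusted *P* = 0.0126). Its groups did not overlap either. Messages of complexes I, III and IV were therefore all among those that fell. For the other strand there is only *mt-Nd6*. Its reads cannot be told apart from transcripts of the opposite strand if strand was not used in counting. In nSREBP2 library 3 each of the 7 was higher than in nSREBP2 libraries 1 and 2. Left out one library at a time, 6 or 7 of the mitochondrial genes were called, and *mt-Co1* lost its call without nSREBP2 library 2. When all 18 libraries were fitted together with a term for sex, the median log2FC of the 10 tested mitochondrial genes went from -0.56 to -0.98. That term is set by uninjected library 3 and *Lrp2* sh2 libraries 2 and 3, since nSREBP2 and GFP do not share a sex, so it does not separate sex from nSREBP2.

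Of the 81 nuclear subunits, 18 fell, 1 rose and 62 did not pass, with a median log2FC of -0.23 (a change of -14.5%). The sign was negative in 72 of the 81. Complex I, counted by gene name and so with *Ndufa4*, had 38 subunits tested, of which 10 fell and *Ndufa4l2* rose. Among the nuclear core subunits, which carry the flavin and the iron-sulphur clusters, *Ndufs1* and *Ndufs7* fell (log2FC -0.32 and -0.35), and *Ndufv1* was at -0.18 ± 0.07 without passing (adjusted *P* = 0.0848). Accessory subunits, which surround the core, gave 7 of the 10. *Ndufa5* had the largest nuclear fall, with 7.15, 5.58 and 5.39 CPM against 9.42, 11.8 and 9.68 CPM with GFP (log2FC -0.77 ± 0.17, adjusted *P* = 0.0109). These groups did not overlap, but the gene is low, at 11.8 CPM or less in every library. *Ndufb10* (log2FC -0.56), *Ndufb3* (-0.52), *Ndufb9* (-0.48) and *Ndufa11* (-0.46) followed.

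In complex II, 1 of 4 subunits fell. *Sdha* (GRCm38 chr13:74322254-74350280), the flavoprotein that oxidises succinate and also serves the tricarboxylic acid (TCA) cycle, was at 141, 129.9 and 140.5 CPM with nSREBP2 and 176, 179 and 170.3 CPM with GFP. The replicates were tight and the groups well apart (log2FC -0.36 ± 0.06, adjusted *P* = 0.00307). *Sdhb*, *Sdhc* and *Sdhd* were at -0.19, -0.24 and -0.10 and did not pass. In complex III, *Cyc1*, cytochrome c1, fell (log2FC -0.39), and the core proteins *Uqcrc1* and *Uqcrc2* and the Rieske protein *Uqcrfs1* were at -0.18, -0.19 and -0.25 without passing. In complex IV, 2 of 15 tested fell, and they were the 2 isoforms of subunit 4: *Cox4i1* (log2FC -0.35) and *Cox4i2* (-0.74). Leaving out 1 library, *Cox4i1*, *Cox4i2*, *Cyc1*, *Ndufs1* and *Atp5a1* each lost the call in 4 of 6 fits. In complex V, 4 of 15 fell, namely *Atp5a1*, *Atp5b* and *Atp5c1* of the F1 head and *Atp5o* of the stalk (log2FC -0.28, -0.34, -0.26 and -0.37). *Atp5b* went from 509.7, 556 and 468 CPM to 411, 375 and 425 CPM, without overlap. The 3 rotor genes were not called (*Atp5g1* -0.17, *Atp5g2* 0.02, *Atp5g3* -0.25).

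*Ndufa4l2*, a paralog of *Ndufa4* that is known as a target of the hypoxia factor HIF-1, was the member that rose. Its CPM was 26.0, 26.6 and 25.9 with nSREBP2 and 14.1, 18.2 and 22.3 with GFP. The nSREBP2 libraries were the highest of all 18 and close to one another, while GFP spread widely (log2FC 0.52 ± 0.15, adjusted *P* = 0.0332). The call was lost in 5 of the 6 fits that left out 1 library. *Ndufa4* itself, now assigned to complex IV although its name is that of complex I, was not called in this comparison.

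The number of nuclear subunits called moved more with single libraries than the mitochondrial number. Leaving out one library at a time gave 3 to 26 nuclear subunits called lower (8 in the fit with the term for sex, which has the same limit). Other mitochondrial genes moved in part. Of 18 TCA cycle genes 7 fell, led by *Suclg1* (log2FC -0.48) and *Sucla2* (-0.41), subunits of succinyl-CoA ligase, and none rose. Of 77 mitochondrial ribosomal proteins 2 fell, *Mrps18a* and *Mrps6*. Of 29 genes that copy, process or translate mitochondrial DNA, *Fastkd1*, *Supv3l1* and *Lrpprc* fell (log2FC -0.65, -0.57 and -0.28), the last known to stabilise mitochondrial mRNA, and *Hsd17b10* rose. Of 17 regulators of mitochondrial biogenesis, none fell and *Myc*, *Pprc1* and *Ppard* rose (log2FC 1.13, 0.44 and 0.28). By contrast, 64 of 83 cytosolic ribosomal proteins rose and none fell (median log2FC 0.39).

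Marker lists moved in the same comparison. All 7 fibroblast markers rose, and their sum was 86694, 71297 and 80100 CPM with nSREBP2 against 34493, 39294 and 43837 with GFP, led by *Col1a1* (41222 against 18855 CPM). All 8 macrophage markers rose (588, 556 and 559 against 289, 302 and 329 CPM in sum, led by *Csf1r*). Of 9 endothelial markers 7 fell (1707, 1650 and 1618 against 2177, 2202 and 2808 CPM, led by *Flt1* with GFP). Of 18 RPE markers 6 fell and 2 rose. None of these lists was at 0 in any library. The part of a change in cell make-up, of rod messages or of sex in the fall of oxidative phosphorylation messages was not tested.

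**Figure D3:**
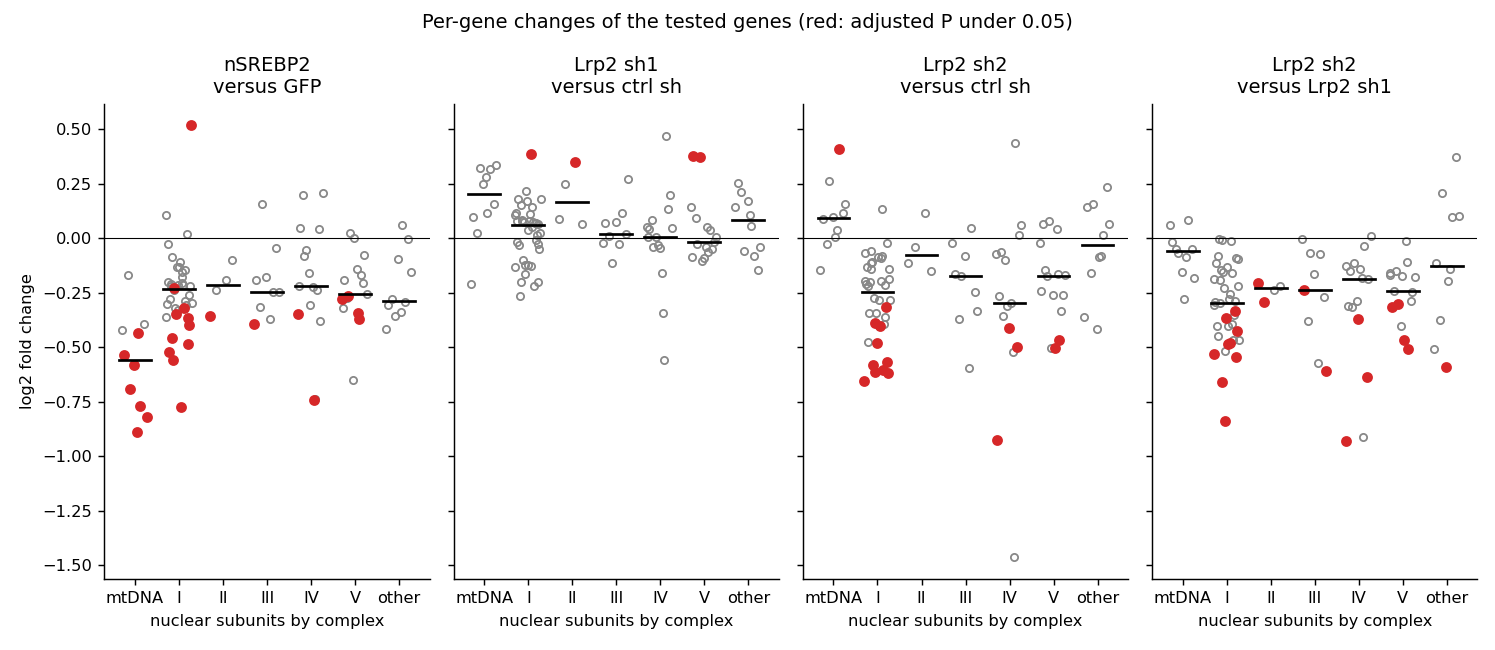
Each point is the log2 fold change of a gene in 1 of 4 comparisons, grouped as mitochondrial genes (mtDNA), nuclear subunits of complexes I to V, and assembly or other genes. Red points passed the test and black bars are medians. The mitochondrial median is -0.56 for nSREBP2 and 0.09 for *Lrp2* sh2 against ctrl sh, while the nuclear medians of both comparisons are below 0.

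Between *Lrp2* sh1 and ctrl sh few members were called. Of 101 tested, 4 nuclear subunits rose and none fell, beside 5.33% of all genes called (3.06% higher and 2.28% lower). None passed with an absolute log2FC above 1, beside 0.994% of all genes. They belonged to complexes I, II and V. *Ndufa10*, an accessory subunit of complex I, was at 56.8, 53.2 and 55.7 CPM against 42.8, 40.3 and 43.8 CPM with ctrl sh. *Atp5f1*, the b subunit of the stator of complex V, was at 94.4, 92.8 and 89.2 CPM against 71.5, 69.3 and 72.2 CPM. In both genes each group was tight and the groups did not touch (log2FC 0.39 ± 0.06 and 0.38 ± 0.05, adjusted *P* = 0.00985 and 0.00520). *Atp5g2*, a gene of rotor subunit c, rose from 29.7, 28.5 and 27.1 to 36.4, 35 and 39.1 CPM, and *Sdhb*, the iron-sulphur subunit of complex II, from 31.4, 33.9 and 31.1 to 41.5, 37.1 and 44.2 CPM (log2FC 0.37 and 0.35). *Sdhb* lost its call in every fit that left out 1 library, and *Atp5g2* in 5 of 6 and with the replicate block. *Ndufa10* lost its call in 1 of the 6 fits that left out 1 library, and *Atp5f1* in 0. Among 9 other alternatives with no limit on log2FC, the call was lost in 3 for *Sdhb*, 2 for *Atp5f1* and 0 for *Ndufa10*. The 7 mitochondrial genes with many counts all had a positive log2FC (median 0.28), and none passed the test (3 had an unadjusted *P* under 0.05, beside 3506 of all 17801 genes tested). *Lrp2* sh1 library 2 had the highest mitochondrial share of the injected eyes, at 1.19%. In the marker lists, 3 of 11 pericyte and smooth muscle markers fell, as did 1 of 18 RPE, 1 of 8 macrophage and 1 of 6 blood markers. None of these rose. All 11 pericyte and smooth muscle, all 6 blood and 15 of the RPE markers had a negative log2FC. None of 9 endothelial or 7 fibroblast markers was called. The part of these in the 4 rises was not tested.

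Of 101 members tested between *Lrp2* sh2 and ctrl sh, 15 nuclear subunits fell and none rose, and 1 mitochondrial gene rose. This was beside 18.1% of all genes called (8.59% higher and 9.48% lower). None passed with an absolute log2FC above 1, beside 4.76% of all genes. The median log2FC of the 81 nuclear subunits was -0.21 (a change of -13.8%), beside 0.01 for all genes tested. Complexes II and III had no member that passed. Those that fell were 10 of 38 subunits of complex I, 3 of 15 of complex IV and 2 of 15 of complex V, and 9 of the 10 in complex I were accessory subunits. Exon length had a median of 1214 bases in the 15 genes and 1587 bases in the 81.

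*Cox8a* (GRCm38 chr19:7215153-7217616, minus strand) had the largest fall among the members called. Its CPM was 53.7, 42.7 and 63.5 with *Lrp2* sh2, against 95.9, 99.8 and 109.5 with ctrl sh and 107, 103 and 95.8 with *Lrp2* sh1. All 3 sh2 libraries were well below all 6 others (log2FC -0.92 ± 0.12, adjusted *P* = 0.00117 against ctrl sh). The uninjected and GFP libraries, at 48.6 to 83.2 CPM, overlapped those of sh2. *Ndufa8* (chr2:36036326-36049406, minus strand), an accessory subunit of complex I with a twin-cysteine fold, was at 17.8, 14.5 and 19.3 CPM against 26.6, 27.0 and 26.1 CPM with ctrl sh (log2FC -0.61 ± 0.11, adjusted *P* = 0.00547). The sh2 values were below those of ctrl sh without overlap. *Atp5g1* was at 29.9, 29.8 and 31.1 CPM against 40.6, 44.2 and 41.6 CPM (log2FC -0.47 ± 0.07, adjusted *P* = 0.00238), and *Atp5h*, a stalk subunit, had a log2FC of -0.50. Of the 2 other rotor genes neither was called. The remaining genes that fell were *Ndufa1*, *Ndufb11*, *Ndufa3*, *Ndufa4*, *Ndufv3*, *Ndufa13*, *Ndufb7*, *Ndufs7* and *Ndufb9* in complex I by name, and *Cox7b* and *Cox6a1* in complex IV, with log2FC of -0.66 to -0.31. In 4 of the 6 fits that left out 1 library, *Ndufa1*, *Ndufa4* and *Cox6a1* each lost the call. *Cox6a1* also lost it in 1 of 9 other alternatives with no limit on log2FC.

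*Ndufa1*, *Ndufb11* and *Cox7b* are the only tested nuclear subunits on chromosome X, and all 3 fell with *Lrp2* sh2. Between nSREBP2 and GFP, *Ndufb11* was called lower, and *Ndufa1* and *Cox7b* were not called. *Ndufb11* (chrX:20615326-20617619, minus strand) was at 27.2, 26.1 and 31.2 CPM, below each of the ctrl sh libraries at 44.0, 39.7 and 47.2 CPM. *Ndufa1* was at 11.7, 10.8 and 16.9 CPM against 17.7, 22.0 and 22.8 CPM. Its call was lost in 4 of the 6 fits that left out 1 library, and that of *Ndufb11* in 0. *Ndufa1* was also called higher with ctrl sh than in uninjected eyes, and its sh2 values overlapped those of uninjected eyes. *Cox7b* was at 19.3, 19.1 and 26.2 CPM against 26.5, 32.9 and 32.6 CPM. *Lrp2* sh2 library 1, which like the ctrl sh libraries had next to no Y-linked counts, was below all 3 ctrl sh libraries in each gene. The same held for all 15 genes called lower, and equally in *Lrp2* sh2 libraries 2 and 3. These genes were called with all 3 libraries, which nearly fixes this order, so it cannot decide on sex. The part of sex in these falls was not tested. A part of the *Ndufb11* transcript shares 117 bases with exons of *Rbm10* on the other strand, and its reads cannot be told apart from those of *Rbm10* if strand was not used in counting.

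The mitochondrial gene that rose with *Lrp2* sh2 was *mt-Nd2*, a core subunit of the membrane arm of complex I, at 556, 528 and 654 CPM against 391, 469.6 and 459 CPM with ctrl sh (log2FC 0.41 ± 0.10, adjusted *P* = 0.0223). These groups did not overlap, but uninjected eyes spanned 333 to 696 CPM, beyond both. The call was lost in 2 of 9 alternatives with no limit on log2FC, the fit of all 18 libraries among them. It was also lost in 3 of the 6 fits that left out 1 library. The other 6 of the 7 had a log2FC above 0 without passing, and *mt-Nd5* was at 0.16 ± 0.09. *mt-Co2*, *mt-Atp6* and *mt-Co3* with few counts were at -0.15 to 0.11. With the term for sex, which rests on the same 3 libraries, the median of the 10 tested mitochondrial genes went from 0.09 to -0.19.

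The libraries with *Lrp2* sh2 were also unlike ctrl sh in other lists. Rod markers rose in 13 of 16 genes, to 544, 126 and 155 CPM in sum against 57, 81 and 60 CPM. Of 8 macrophage markers 2 rose. All 6 blood markers and 8 of 9 endothelial markers fell, the latter to 1542, 1674 and 1595 CPM from 2483, 2479 and 2339. Of 18 RPE markers 6 fell and 2 rose, and the visual cycle enzyme *Lrat* went from 172 ± 122 to 7.84 ± 1.93 CPM (SD, n = 3). The part of these in the fall of the 15 genes was not tested. Without *Lrp2* sh2 library 1, which held most rod message, 8 members were called. Leaving out *Lrp2* sh2 library 3 raised the count of members called from 16 to 30, and leaving out ctrl sh library 3 lowered it to 6. Of 16 regulators of mitochondrial biogenesis, the coactivator *Ppargc1a* fell (log2FC -0.69) and *Pprc1* rose (0.39), with a median of 0.13, while 3 of 77 mitochondrial ribosomal proteins fell and 1 rose, and 3 of 18 TCA cycle genes fell and none rose. Of 36 genes tested in a list of assembly factors of complexes III to V, *Uqcc2*, *Surf1* and *Coa5* fell. *Sdhaf3*, a complex II factor also on that list, rose.

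The 2 hairpins against the same gene were also compared with each other. *Lrp2* was at 38.7 ± 4.73 CPM with sh2 and 36.9 ± 6.65 CPM with sh1 (SD, n = 3, log2FC 0.08 ± 0.13, adjusted *P* = 0.728 in edgeR). Between *Lrp2* sh2 and sh1, 20 nuclear subunits and *Ndufaf3* fell and none rose, beside 22.4% of all genes called (10.2% higher and 12.3% lower). None passed with an absolute log2FC above 1, beside 5.13% of all genes. The median log2FC of nuclear subunits was -0.26, and 80 of 81 were below 0. Each of complexes I to V was represented, by 9, 2, 2, 3 and 4 subunits. *Cox8a* (log2FC -0.93 ± 0.12), *Ndufa8* (-0.84 ± 0.11) and *Ndufa4* (-0.66 ± 0.15) had the largest falls among the members called. *Ndufa8* was at 31.4, 30.3 and 30.9 CPM with sh1, above every library of the other groups. *Ndufa10*, *Atp5f1* and *Atp5g2* had a log2FC of sh2 over sh1 of -0.48, -0.31 and -0.30, all called lower, from the same sh1 libraries in which they were higher than with ctrl sh. Leaving out 1 library, *Atp5f1* lost its call here in 4 of 6 fits and *Atp5g2* in 5 of 6. No mitochondrial gene was called (median log2FC -0.06, no gene with an unadjusted *P* under 0.05 among the 7 with many counts). Of 77 mitochondrial ribosomal proteins, 10 fell here and none rose, and of 26 genes of protein import and the inner membrane 8 fell. Leaving out one library at a time gave 8 to 43 members called, the highest again without *Lrp2* sh2 library 3. Marker lists moved here too. Rod markers rose in 13 of 16 genes, to 544, 126 and 155 CPM in sum with sh2 against 43.1, 46.9 and 86.9 with sh1. All 9 endothelial markers fell (1542, 1674 and 1595 against 2314, 2299 and 2156 CPM in sum), and 7 of 8 macrophage markers rose (453, 354 and 338 against 268, 249 and 289 CPM). Of 18 RPE markers 7 fell and 2 rose. The part of these in the fall of nuclear subunits was not tested. The comparisons of sh2 with ctrl sh and with sh1 use the same sh2 libraries.

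The comparisons of nSREBP2 with GFP and of *Lrp2* sh2 with ctrl sh share no library. In each, 72 of 81 nuclear subunits had a negative log2FC. Of all genes tested, 9494 of 17927 were negative for nSREBP2, and the median with sh2 was slightly positive. Both comparisons also shared marker changes. Of 9 endothelial markers 7 fell with nSREBP2 and 8 with sh2, and of 16 rod markers 4 and 13 rose. The part of these in the shared sign was not tested. *Ndufb11*, *Ndufb9* and *Ndufs7* were called lower in both, 3 of 18 (16.7%) and 3 of 15 (20%). These shares are near those of all tested nuclear subunits, 15 of 81 lower with sh2 and 18 of 81 with nSREBP2. Whether the lists differ was not tested. *Cox8a*, first by fold among the members called with sh2, was at 60.2, 54.8 and 60.4 CPM with nSREBP2 and 68.7, 76.2 and 59.1 CPM with GFP, which overlap. *Sdha*, with the smallest adjusted *P* of the nuclear subunits with nSREBP2, was at 147, 152 and 164 CPM with sh2 and 169, 175 and 161 CPM with ctrl sh, which also overlap.

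**Figure D4:**
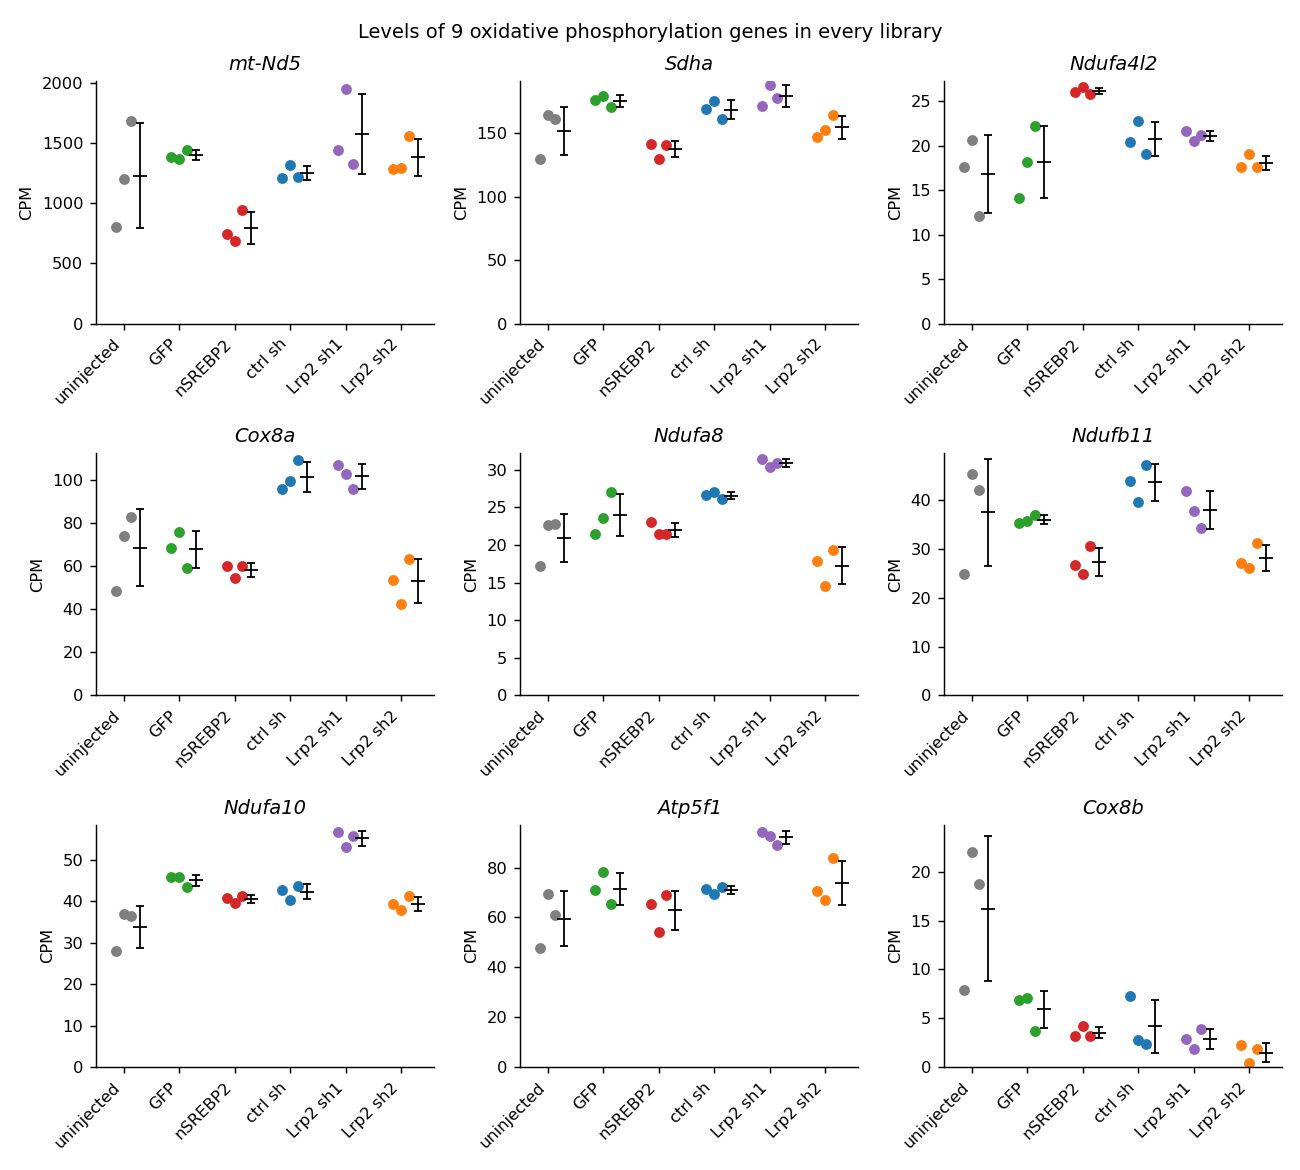
CPM of 9 genes in every library (points), with the mean and SD of each group of 3 at the right. *mt-Nd5* and *Sdha* are lower with nSREBP2 than with GFP. *Cox8a*, *Ndufa8* and *Ndufb11* are lower with *Lrp2* sh2 than with ctrl sh or sh1. *Cox8a* with sh2 overlaps the uninjected and GFP libraries, and *Ndufb11* is also lower with nSREBP2 than with GFP. *Ndufa10* and *Atp5f1* are high with *Lrp2* sh1, while *Cox8b* is highest in uninjected eyes at 7.87 to 22.1 CPM.

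Injection with a control virus was compared with no injection to give the background of the model. Between GFP and uninjected eyes no member was called, beside 2.48% of all genes (0.662% higher and 1.82% lower, and 1.41% past an absolute log2FC of 1), by edgeR. At an unadjusted *P* under 0.05 there were 20 of the 81 nuclear subunits, beside 3529 of all 17837 genes tested, and DESeq2 called 2 members. The median log2FC of nuclear subunits was 0.18. Between ctrl sh and uninjected eyes 3 nuclear subunits rose and 1 fell, beside 6.49% of all genes called (3.13% higher and 3.37% lower), and 74 of 81 had a positive log2FC (median 0.27). *Ndufa1* rose from 10.6, 12.6 and 13.4 CPM in uninjected eyes to 17.7, 22.0 and 22.8 CPM with ctrl sh, and stayed at 9.15 to 12.2 CPM with GFP. *Cox6a1* (log2FC 0.61) and *Uqcrc2* (0.37) also rose, each without overlap between the groups. Uninjected library 1 was the lowest of the 3 uninjected libraries in each of these genes. Without it, ctrl sh had 4 members called against uninjected eyes and GFP had 1. Without ctrl sh library 2 or 3, ctrl sh had 0. With all 18 libraries fitted together, GFP had 12 members called and ctrl sh 14.

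*Cox8b* was the gene that fell with ctrl sh. It was at 7.87, 22.1 and 18.8 CPM in uninjected eyes, 7.33, 2.81 and 2.36 CPM with ctrl sh, and 6.88, 7.10 and 3.75 CPM with GFP. With *Lrp2* sh2 it was at 2.24, 0.419 and 1.84 CPM. Uninjected eyes were thus the highest group, though their lowest library was close to the highest ctrl sh library (log2FC -1.96 ± 0.47, adjusted *P* = 0.0429). It was the only member past an absolute log2FC of 1 in this comparison, beside 2.39% of all genes. The call was lost in 4 of 6 fits that left out 1 library, with the replicate block and with the offset for length and GC. Between GFP and uninjected eyes its log2FC was -1.48 ± 0.37, which did not pass (adjusted *P* = 0.0760). Of 8 skeletal muscle markers tested between ctrl sh and uninjected eyes none was called, 2 had an unadjusted *P* under 0.05 and log2FC ran from -0.83 to 0.80. The list summed to 20.9 to 39.6 CPM in the uninjected and 28.9 to 35.6 CPM in the ctrl sh libraries, with *Acta1* the most abundant, and its part in the level of *Cox8b* was not tested. *Cox6b2* was at 8.17 to 12.8 CPM in uninjected eyes and at 15.8 to 24.7 CPM with the 2 *Lrp2* hairpins, with ctrl sh between them at 13.1 to 15.8 CPM. Across the 6 groups it differed (adjusted *P* = 0.000445), while none of the 6 pairwise comparisons called it, and uninjected eyes were not compared with the *Lrp2* hairpins. For sh1 against ctrl sh its adjusted *P* in edgeR was 0.0531. With no limit on log2FC, it ran from 0.0170 with no filter to 0.173 without sh1 library 1. The gene passed in 3 of the 16 alternative fits.

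Across all 6 groups in one fit, 52 of 101 members differed at an adjusted *P* under 0.05, beside 48.7% of all genes. They were 48 of 81 nuclear subunits and 4 of 10 mitochondrial genes, and leaving out one library at a time gave 36 to 57 and 1 to 7. All 4 subunits of complex II were among them, with 25 of 38 of complex I, 3 of 9 of complex III, 7 of 15 of complex IV and 9 of 15 of complex V. None of the 10 assembly and other genes was. *Ndufa10*, *Cox8a*, *Ndufa8* and *Cox8b* had the smallest adjusted *P*, at 4.83e-05, 0.000149, 0.000166 and 0.000170. Of the 13 mitochondrial genes only the 10 that passed the filter were in this fit.

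**Figure D5:**
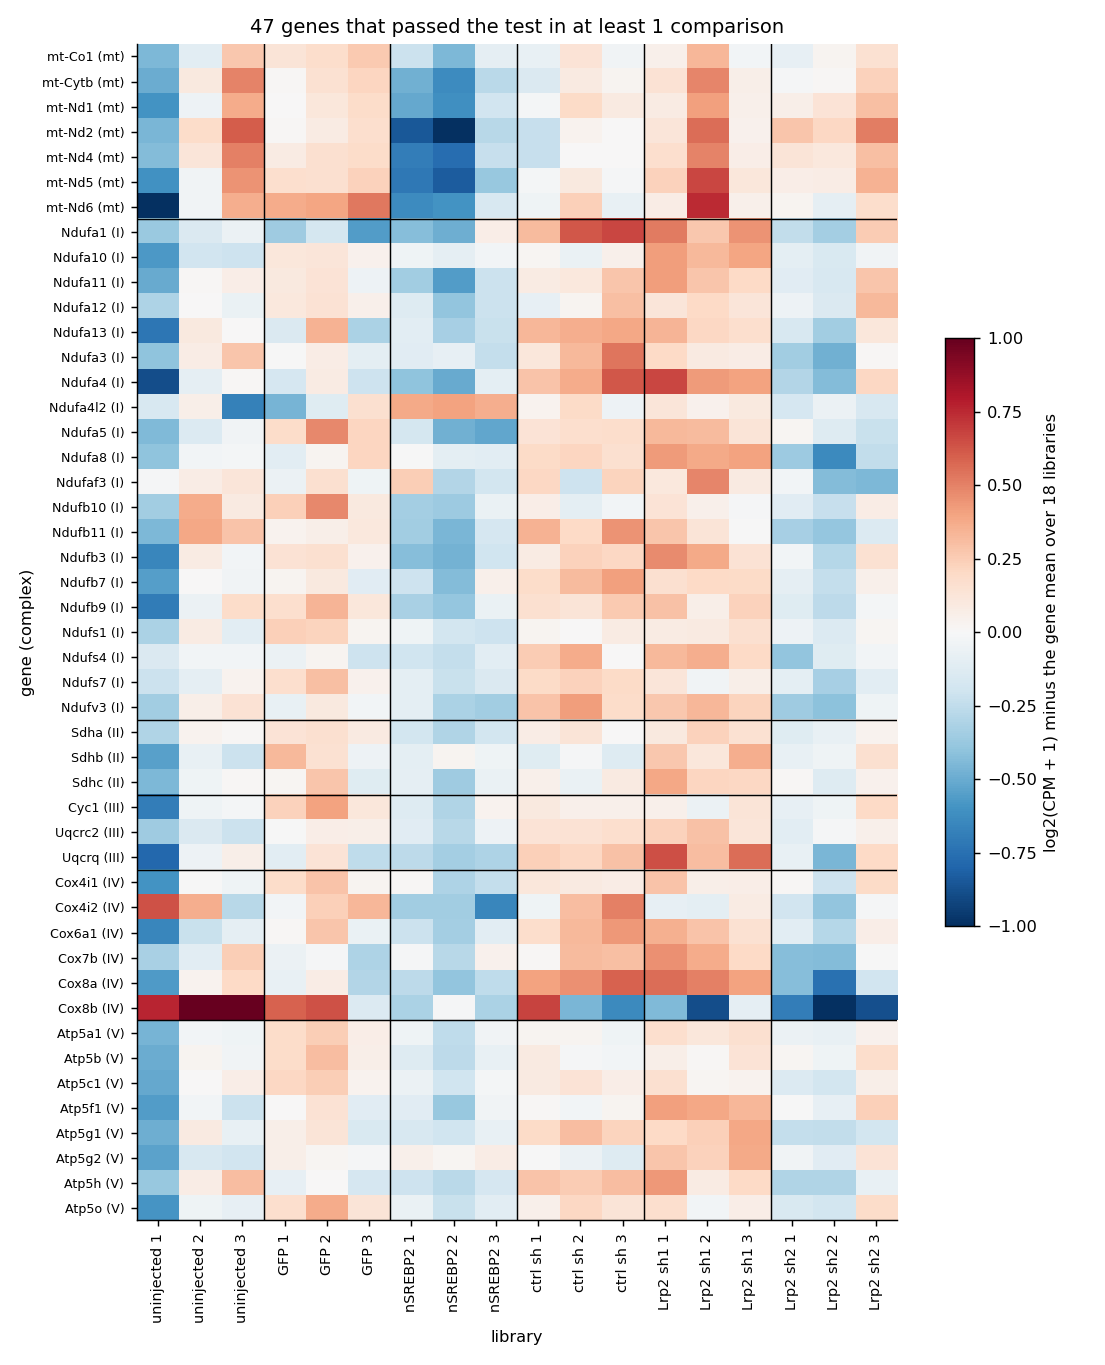
Members called in at least 1 of the 6 comparisons, 47 of 48 drawn (rows, by mitochondrial origin and complex) in 18 libraries (columns). Colour is log2(CPM + 1) minus the mean of the gene over all libraries, drawn from -1 to 1. Mitochondrial rows are blue in nSREBP2 and in uninjected library 1, and most nuclear rows are blue in uninjected library 1 and in *Lrp2* sh2 libraries 1 and 2.

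Promoters were searched for the letters bound by 3 factors known for respiratory genes, and by SREBP, since the members move partly together. The windows ran from 250 bases before to 50 after the start of each gene in RefSeq (GRCm38.p6), and 68 of the 84 nuclear subunits were matched. Both strands were read, and of the motifs only the longer NRF1 form holds another, the NRF1 core. The NRF1 core CGCATGCG, which reads the same on both strands, was in 9 of 68 windows (13.2%, and 2.07% of all 27025 genes with a window). With a G before and a C after it, the form searched first, it was in 5 (7.35%, and 1.07%). The GABPA letters CCGGAAG were in 16 (23.5%, and 9.93% of all genes), and the YY1 letters AAGATGGC in 10 (14.7%, and 3.19%). The sterol element TCACCCCAC was in 0 of 68 (0.614% of all genes), and the E-box CACGTG in 6 (8.82%, and 8.09%). A match is a run of letters and not a bound site, and no match says only that these letters were not in the window. The NRF1 core is shown for 4 members called in a comparison, with the motif in capitals, 5′ to 3′ on the strand of the gene. *Ndufa8* (chr2:36049339-36049367, minus strand), *Cox6a1* (chr5:115349090-115349139, minus strand), *Atp5g2* (chr15:102671059-102671108, minus strand) and *Ndufa11* (chr17:56717683-56717732, plus strand) hold it 1, 153, 33 and 51 bases before the start.
Ndufa8: cgcttgcgcgtcgctggagaCGCATGCGc
Cox6a1: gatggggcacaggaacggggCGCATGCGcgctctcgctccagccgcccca
Atp5g2: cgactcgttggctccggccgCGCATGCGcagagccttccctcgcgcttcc
Ndufa11: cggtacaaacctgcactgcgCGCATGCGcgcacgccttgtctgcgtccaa
*Ndufa11* fell with nSREBP2, *Ndufa8* and *Cox6a1* fell with *Lrp2* sh2 against ctrl sh, and *Atp5g2* rose with *Lrp2* sh1. Between sh2 and sh1 *Ndufa8*, *Cox6a1* and *Atp5g2* all fell, and *Ndufa11* was at -0.30 ± 0.13 on the log2 scale without passing.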

How the data were processed

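RNA was taken from the RPE of both eyes of each mouse after removal of the retina and optic nerve, depleted of rRNA and sequenced as directional paired-end libraries. The values used are the counts per gene that the authors deposited, made from reads aligned to GRCm38, with genes counted by STAR at default settings. The counting annotation and its use of strand are not given in the sources used here. Depth was 8921885 to 13696934 counts per library, so that 3 counts were worth 0.219 to 0.336 CPM. No 2 replicates agreed within sampling noise (lowest chi-square per degree of freedom 3.30). The labels number the libraries of a group without naming animals, so *P*-values measure the spread between these libraries.

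Members and lists were chosen with earlier results of these data known. Each pair of groups was tested on its 6 libraries by the quasi-likelihood test of edgeR 4.0.16 (R 4.3.3) after its default expression filter and TMM scaling, and all 18 libraries gave the test across 6 groups. *P*-values were adjusted by Benjamini-Hochberg over all genes tested. The SE is the absolute log2FC divided by the square root of F. The script was tested on simulated data. The genes named are the 13 mitochondrial genes, fixed core subunits and isoforms, and up to 3 rises and 3 falls per comparison among genes called, with at least 1 CPM and no overlap between groups. Other members named were chosen after their values were seen. Alternatives were DESeq2 1.42.0, its size factors, scaling without mitochondrial genes, no filter, a joint fit of the 18 libraries with and without sex, a minimum of 10 counts throughout, a replicate block, an offset for length and GC, a log2FC limit of 1, and leaving out each library. All 107 members matched GENCODE M21. Copies were found with blastn 2.17.0. Of the nuclear members, 17 share at least 100 bases with a near-identical copy, and exons of 42 members overlap another gene. Results of some genes are not reported here.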

Additional observations from a re-analysis of the deposited data

Results flagged for a closer look

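The 2 hairpins against *Lrp2* differed in 13 of the genes named by the rule, each tested directly between the 6 libraries of sh2 and sh1. They are among the 21 members called in this comparison, beside 22.4% of all genes (10.2% higher and 12.3% lower). As log2FC of sh2 minus that of sh1, the genes named for complex I, with *Ndufa4* now assigned to complex IV, were at -0.84 (*Ndufa8*), -0.66 (*Ndufa4*), -0.53 (*Ndufa1*), -0.48 (*Ndufa10*) and -0.43 (*Ndufb11*). The complex II genes *Sdhc* and *Sdha* were at -0.29 and -0.21, and *Uqcrc2* of complex III at -0.24. The complex IV genes *Cox8a* and *Cox6a1* were at -0.93 and -0.37. The complex V genes *Atp5g1*, *Atp5f1* and *Atp5g2* were at -0.51, -0.31 and -0.30. All 13 passed at an adjusted *P* under 0.05 in edgeR, and in each the sh2 level was the lower one. Of the 6 fits that left out 1 library, the call was lost in 5 for *Atp5g2*, *Ndufa1* and *Sdha*, in 4 for *Atp5f1* and *Uqcrc2*, in 3 for *Cox6a1*, in 2 for *Sdhc*, in 1 for *Ndufa4* and *Ndufb11*, and in 0 for *Cox8a*, *Ndufa8*, *Ndufa10* and *Atp5g1*. Of 9 other alternatives, it was lost in 2 for *Atp5f1*, *Ndufb11*, *Sdha* and *Sdhc* and in 1 for *Atp5g2* and *Uqcrc2*.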

How the results depend on the processing

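The number of members called was 26 for nSREBP2 against GFP, 4 for *Lrp2* sh1 and 16 for *Lrp2* sh2 against ctrl sh, 0 for GFP and 4 for ctrl sh against uninjected eyes, and 21 for sh2 against sh1. With DESeq2 it was 7 for sh1, 2 for GFP and 7 for ctrl sh, and with no filter 8, 2 and 7. With all 18 libraries in one fit it was 2 for sh1, 12 for GFP and 14 for ctrl sh, and a term for sex gave 16 for nSREBP2, 2 for sh1, 12 for GFP and 19 for ctrl sh. With the replicate block it was 2 for sh1 and 1 for ctrl sh, 20 for nSREBP2, 14 for sh2 and 23 for sh2 against sh1. The replicate numbers do not pair the libraries (correlations of deviations from -0.261 to 0.267). Above an absolute log2FC of 1 it was 0, except 1 for ctrl sh. The log2 ratio of mitochondrial to nuclear sums for sh2 against ctrl sh went from 0.27 to 0.35 without the most abundant gene of each sum. The cause of these moves was not tested. Leaving out one library gave 10 to 34 for nSREBP2, 1 to 3 for sh1, 6 to 30 for sh2, 0 to 1 for GFP, 0 to 4 for ctrl sh and 8 to 43 for sh2 against sh1. For nSREBP2 it was 16 and 10 without GFP libraries 1 and 2, and 15 and 12 without nSREBP2 libraries 1 and 2. For sh2 it was 7 and 6 without ctrl sh libraries 2 and 3, and 8, 7 and 30 without sh2 libraries 1, 2 and 3. For sh2 against sh1 it was 8 and 13 without sh1 libraries 1 and 2, and 11 and 43 without sh2 libraries 2 and 3. Of the 48 calls of named genes, 46 held with DESeq2, 48 with its size factors, 48 with scaling without mitochondrial genes, 48 with a minimum of 10 counts, 47 with no filter, 45 with the offset for length and GC, 39 in the joint fit, 38 with the replicate block, 35 with the term for sex and 1 above an absolute log2FC of 1. Over the fits that left out 1 library, 182 of these calls held and 106 were lost. No named call changed sign. Genes at a few CPM, *Cox8b* among them, are limited by depth.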

Other observations

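The mitochondrial ribosomal RNAs, which are not translated and were outside the members, took 1.48%, 1.22% and 1.90% of counts with nSREBP2 and 2.66%, 2.67% and 2.78% with GFP, without overlap. In uninjected eyes they took 1.59%, 1.74% and 2.34%, which overlapped nSREBP2 and lay below GFP without overlap. With *Lrp2* sh2 they took 2.11%, 2.41% and 2.97%, against 2.06%, 2.13% and 2.05% with ctrl sh. These libraries were depleted of rRNA, and the part of that step in these shares was not tested.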
